A study of Mus musculus with 14 samples.

Results

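8 genes of the interferon pathway were followed through tumour T cells under PD-L1 blockade. They were chosen by name as the partner chain of the interferon-gamma receptor (Ifngr2), both chains of the type I interferon receptor (Ifnar1, Ifnar2), 2 of the kinases bound to these receptors (Jak1, Jak2), a transcription factor that the pathway induces (Irf1) and a pair of feedback inhibitors (Socs1, Socs3). These are 8 of the 25124 genes in the deposited table, and all 8 were among the 13434 genes that passed the filter on low counts. The mice were female C57BL/6 animals of 8 to 12 weeks and, in every group, of the genotype given as GATIR Foxp3Cre-rfp Gata3Cre-yfp, in which a red fluorescent protein reports Foxp3. All carried subcutaneous tumours of AE17-OVA, mesothelioma cells of mouse origin made to carry ovalbumin as a model antigen. On day 10 they were given 200 µg of anti-PD-L1 (clone MIH5) or of an isotype antibody (clone 2A3) into the peritoneal cavity, and tumour cells were sorted on day 13 by the red reporter and by surface PD-1, CD25 and CD4. The 6 groups were sequenced: PD-1+ regulatory T cells (Tregs) under anti-PD-L1 (n = 3) and isotype (n = 2), PD-1- Tregs under anti-PD-L1 (n = 2) and isotype (n = 2), and other CD4 T cells under anti-PD-L1 (n = 3) and isotype (n = 2). The replicates are called biological in the series text, and the sources do not say how animals or pools map to them. P-values therefore cover the spread among these 14 libraries, which may be technical.

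Interferon-gamma binds a receptor of Ifngr1 and Ifngr2 chains, which carry the kinases Jak1 and Jak2, and type I interferons bind Ifnar1 and Ifnar2, which carry Tyk2 and Jak1. The kinases phosphorylate STAT proteins, which enter the nucleus and switch on genes such as Irf1, itself a transcription factor. Socs1 and Socs3 are among the genes induced by cytokines, and their proteins bind receptors or JAK kinases and damp further signalling. Socs1 is known to limit responses to interferon-gamma in T cells, and Tregs that lack it lose part of their function.

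Total counts ran from 10638848 to 15030804 per library, and 8027 to 14535 genes had at least 1 count. Smart-seq2 libraries carry no molecular identifiers, so counts are amplified reads, and counting limits cover counting error only. All 9 T cell markers checked were detected in every group, with a summed level of 6579 to 9945 CPM per library (CPM, counts per 1e+06 counts of a library whose total is scaled by its TMM factor). Of the 14 libraries, 3 went against the female label, since their Y-linked genes summed to 207.5 CPM (CD4 T cells under anti-PD-L1, replicate 3), 249.5 CPM (PD-1- Tregs under anti-PD-L1, replicate 2) and 285 CPM (PD-1+ Tregs under anti-PD-L1, replicate 3), against at most 0.0849 CPM in the other 11. All 3 are treated libraries whose titles carry the same bracketed number, 3, and each call among the 8 is also given without them. That leaves 1 treated PD-1- Treg library, and a library left alone in its arm, here or on leaving out 1 of 2, is assumed to vary as the other groups do. In treated PD-1- Tregs, replicates 1 and 2 carry the bracketed title numbers 2 and 3, and no library of that group carries 1. Markers of macrophages and monocytes (13 genes) summed to 5414 to 9549.9 CPM in PD-1+ Tregs, 1078 to 1815 CPM in PD-1- Tregs and 3758 to 9286 CPM in CD4 T cells. All 13 were detected in both other populations, while C1qa was at 0 in every PD-1- Treg library, Mrc1 in those under anti-PD-L1 and Adgre1 in those under isotype. Bulk values cannot tell fewer cells of a type from less RNA per cell.

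Promoter windows are shown for the 3 members that passed a test in at least 1 comparison (Socs1, Ifnar1, Jak1) and for Irf1, the transcription factor of the set. Each runs from 250 bases before to 50 bases after the transcription start in RefSeq on GRCm38.p6, 5′ to 3′ on the gene's strand, and RefSeq windows were matched for all 8 members. Capitals mark 2 motifs searched on both strands: the STAT-dimer site TTCNNNGAA, a palindrome, and the core of the interferon-stimulated response element GAAANNGAAA, read as TTTCNNTTTC on the other strand. The windows are Socs1 at chr16:10785487-10785786 (minus strand), Irf1 at chr11:53769764-53770063 (plus), Ifnar1 at chr16:91484965-91485264 (plus) and Jak1 at chr4:101265174-101265473 (minus).
Socs1: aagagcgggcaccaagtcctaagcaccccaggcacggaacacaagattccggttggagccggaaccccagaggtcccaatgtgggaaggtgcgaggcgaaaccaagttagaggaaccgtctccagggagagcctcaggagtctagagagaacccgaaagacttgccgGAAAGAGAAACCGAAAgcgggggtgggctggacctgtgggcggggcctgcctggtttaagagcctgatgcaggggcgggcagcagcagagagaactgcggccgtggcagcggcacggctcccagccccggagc
Irf1: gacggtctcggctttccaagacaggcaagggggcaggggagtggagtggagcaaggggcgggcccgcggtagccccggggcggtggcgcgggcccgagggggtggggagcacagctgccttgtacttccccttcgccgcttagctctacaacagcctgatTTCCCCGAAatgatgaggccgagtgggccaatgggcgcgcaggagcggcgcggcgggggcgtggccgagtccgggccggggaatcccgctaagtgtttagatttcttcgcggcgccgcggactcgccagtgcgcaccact
Ifnar1: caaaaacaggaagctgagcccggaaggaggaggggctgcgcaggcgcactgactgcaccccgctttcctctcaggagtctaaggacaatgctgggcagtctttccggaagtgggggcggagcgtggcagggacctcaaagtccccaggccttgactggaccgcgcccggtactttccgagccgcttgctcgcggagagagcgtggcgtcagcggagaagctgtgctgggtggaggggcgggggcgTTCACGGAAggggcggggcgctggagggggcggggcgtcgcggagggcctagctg
Jak1: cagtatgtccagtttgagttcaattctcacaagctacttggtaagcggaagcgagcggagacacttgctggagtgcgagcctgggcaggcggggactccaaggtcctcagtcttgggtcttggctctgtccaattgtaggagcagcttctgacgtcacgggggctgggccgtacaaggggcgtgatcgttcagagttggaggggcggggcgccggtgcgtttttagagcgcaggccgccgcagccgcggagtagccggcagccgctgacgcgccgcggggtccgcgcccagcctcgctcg

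The Socs1 window held 2 overlapping matches to the response-element core, starting 83 and 77 bases before the start, and no match to TTCNNNGAA. Irf1 held TTCNNNGAA 90 bases before the start in this window and neither motif in its second RefSeq window. Ifnar1 held TTCNNNGAA 5 bases before the start. Of the members not shown, Ifnar2 held it 214 bases and Socs3 154 bases before the start, and Ifngr2 and Jak2, like Jak1, held neither motif. For Ifnar1, Jak1 and Socs3 the start used lies inside the gene's RefSeq span, downstream of its outer 5′ end. The Ifnar1 and Socs3 matches therefore lie within those spans. Over all 32851 windows of this length, 8.30% held TTCNNNGAA and 3.44% the response-element core. A match describes letters in the window and says nothing of binding.

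The 3 receptor chains lie near each other on chromosome 16 of GRCm38.p6 in the order Ifnar2 (chr16:91372783-91405589), Ifnar1 (chr16:91485032-91510523) and Ifngr2 (chr16:91547059-91564007), all on the plus strand, with the IL-10 receptor gene Il10rb next to Ifnar2. Socs1 (chr16:10783808-10785536) lies far from them on the same chromosome. Jak1 is on chromosome 4, Jak2 on chromosome 19, and Irf1 and Socs3 on chromosome 11. In the GENCODE annotation, exons of Ifnar2 share 315 bases with the same-strand gene Gm21970 and those of Irf1 share 135 bases with the antisense gene Gm17334. Whether counting used strand is not stated, so reads of these stretches are uncertain.

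**Figure D1:**
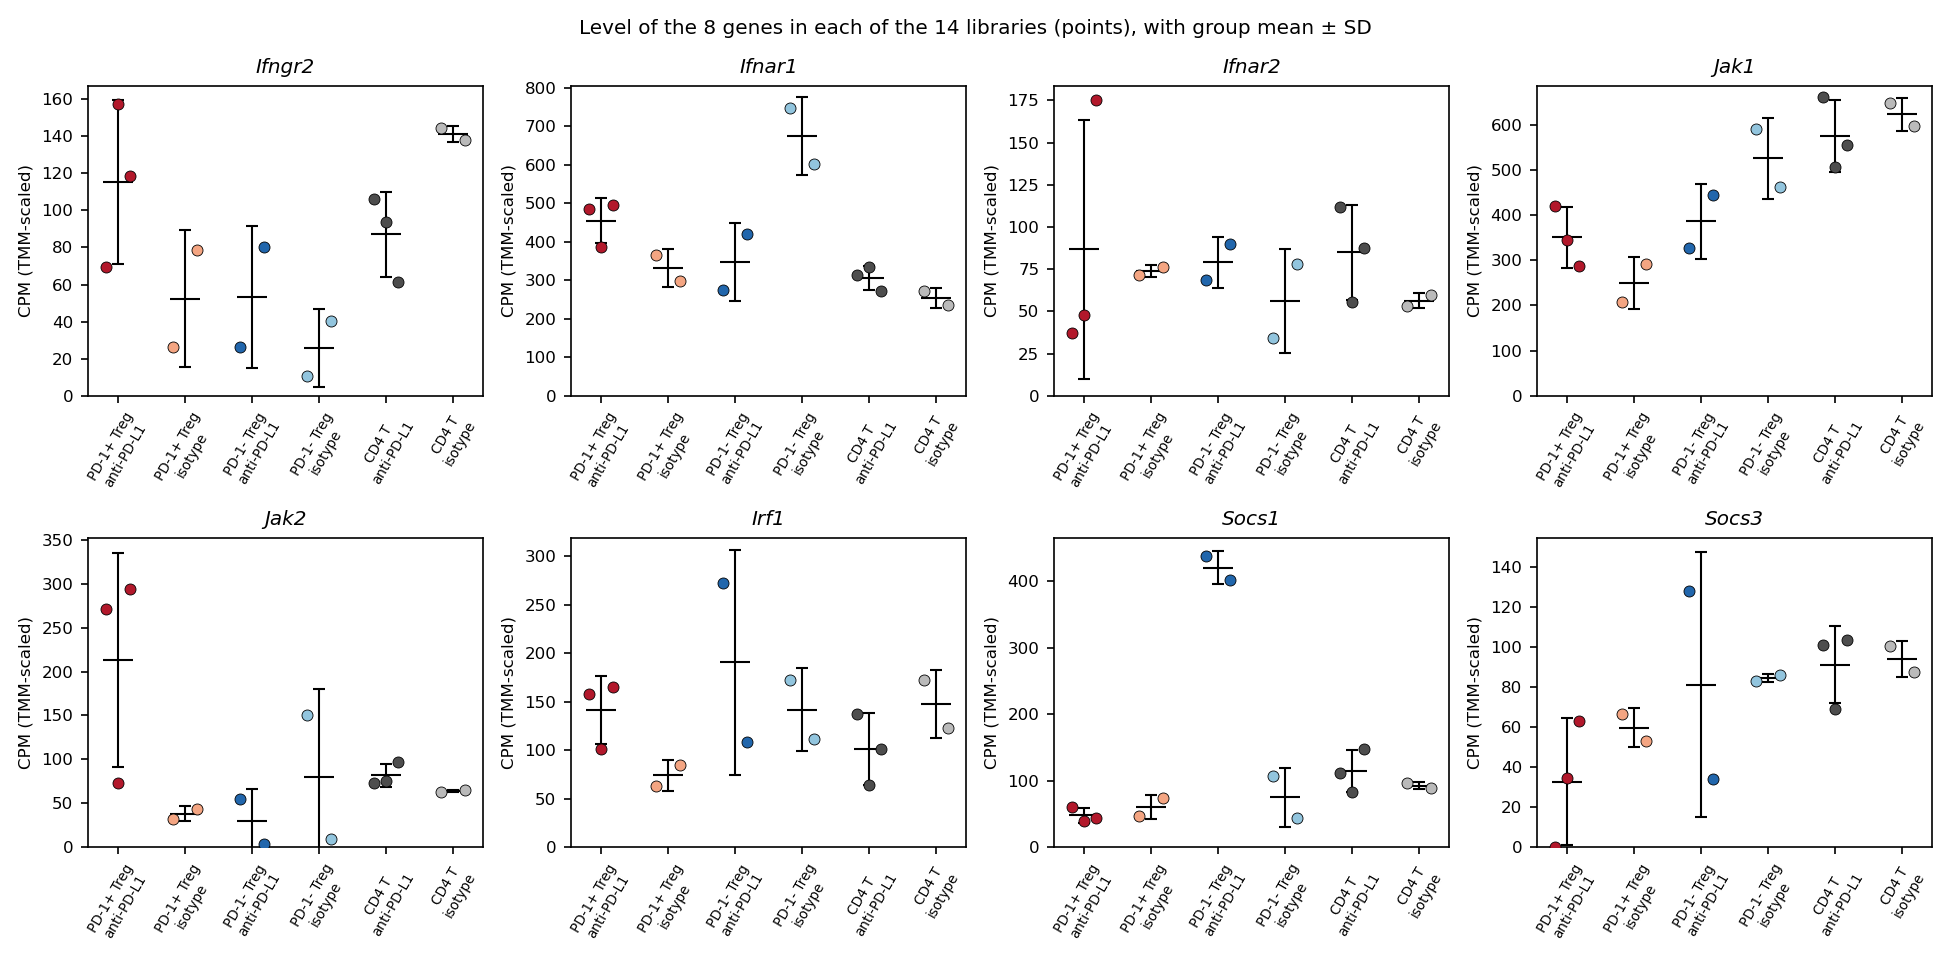
Level of each of the 8 genes in every library, in CPM scaled by TMM factors on a linear axis from 0, with anti-PD-L1 left of isotype in each population; points are libraries and black bars the group mean ± SD (n = 2 or 3). Socs1 stands at 438 and 402 CPM in treated PD-1- Tregs and at 147 CPM or below in the other 12 libraries.

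Members were compared by deposited RPKM, read counts divided by transcript length in kilobases and by the library's mapped reads. Jak1 had the highest mean of the members in PD-1+ Tregs, at 53.2 ± 12.5 RPKM (SD, n = 5). It also had the highest in CD4 T cells, at 109 ± 13.1 RPKM (n = 5). Its range in PD-1+ Tregs, 38.1 to 69.2 RPKM, overlapped that of Ifnar1, at 37.6 to 54.8 RPKM. In CD4 T cells its range, 91.5 to 123 RPKM, overlapped that of Socs1, at 57.8 to 105 RPKM. Averaged over both antibodies, Socs1 led in PD-1- Tregs, at 183 ± 156 RPKM (n = 4), a mean over libraries that ranged from 27.8 to 339 RPKM. Under anti-PD-L1 it averaged 316 ± 32.6 RPKM (n = 2) and under isotype 49.3 ± 30.5 RPKM (n = 2). Under isotype Jak1 (87.9 ± 12.0 RPKM), Ifnar1 (77.6 ± 11.7 RPKM) and Irf1 (53.6 ± 16.1 RPKM) had higher means than Socs1 in these cells. Jak2 was the lowest or second lowest member by RPKM in each population, at 22.8 ± 19.6 RPKM in PD-1+ Tregs, 9.25 ± 11.0 RPKM in PD-1- Tregs and 13.3 ± 2.33 RPKM in CD4 T cells. Ifnar1 averaged 47.7 ± 6.98 RPKM in PD-1+ Tregs, 61.4 ± 20.9 RPKM in PD-1- Tregs and 36.1 ± 4.67 RPKM in CD4 T cells. Its partner Ifnar2 stood at 28.9 ± 9.84 RPKM in PD-1+ Tregs, 38.0 ± 19.3 RPKM in PD-1- Tregs and 37.7 ± 10.7 RPKM in CD4 T cells, with ranges that overlapped those of Ifnar1 in each population. For Ifnar2 the transcript length implied by the ratio of count to RPKM ranged between libraries from 1293 to 3774 bases, a 2.92-fold spread, while for each of the other 7 members it varied by at most 1.05-fold. A spread over 1.5-fold was found for 1.93% of 3581 well-counted genes, so its RPKM and count values are not interchangeable.

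The signalling chain of the interferon-gamma receptor, Ifngr2, varied widely among Treg libraries. PD-1+ Tregs had 69.4, 158 and 119 CPM of Ifngr2 under anti-PD-L1, against 26.2 and 78.6 CPM under isotype. PD-1- Tregs had 26.2 and 80.4 CPM under anti-PD-L1, against 10.8 and 40.5 CPM under isotype. CD4 T cells had 106, 93.6 and 61.6 CPM under anti-PD-L1, against 144 and 138 CPM under isotype. The arms overlapped in both Treg populations, and in CD4 T cells every treated library lay below both isotype libraries. That difference in level did not pass the test, with a log2 fold change of -0.70 ± 0.71 and an adjusted p of 1 (edgeR quasi-likelihood test, Benjamini-Hochberg over all genes, as for every adjusted p below). Across populations the PD-1- Tregs were lowest, at -1.58 ± 0.55 against CD4 T cells on the log2 scale (adjusted p = 0.104).

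Its partner Ifngr1, the chain that binds the cytokine and no member of the 8, was about 4-fold higher under anti-PD-L1 in each population. PD-1+ Tregs averaged 2192 ± 352 CPM under anti-PD-L1 (SD, n = 3) against 574 ± 35.7 CPM under isotype (n = 2). PD-1- Tregs averaged 2218 ± 540 CPM under anti-PD-L1 (n = 2) against 552 ± 13.0 CPM under isotype (n = 2). CD4 T cells averaged 1770.2 ± 267 CPM under anti-PD-L1 (n = 3) against 417 ± 22.8 CPM under isotype (n = 2). The log2 change of Ifngr2 was 1.14 ± 0.75 for PD-1+ Tregs (adjusted p = 0.776) and 1.05 ± 0.80 for PD-1- Tregs (adjusted p = 0.548), neither past the threshold, and in CD4 T cells the 2 chains had changes of opposite sign. The log2 change of Ifngr1 was 1.93 ± 0.21 in PD-1+ Tregs (adjusted p = 0.00564), 2.01 ± 0.22 in PD-1- Tregs (adjusted p = 0.00119) and 2.09 ± 0.21 in CD4 T cells (adjusted p = 0.00386). It was 1.76, 1.71 and 2.05 without the 3 libraries with Y-linked reads, past the threshold each time. Limma-voom gave 1.88, 1.93 and 2.03 without a call (adjusted p = 0.341, 0.202 and 1), and fits of only the libraries compared ended the call in PD-1+ (adjusted p = 0.722) and PD-1- Tregs (adjusted p = 0.612). Leaving out either isotype library of PD-1+ Tregs (adjusted p = 0.158 and 0.104) or of CD4 T cells (adjusted p = 0.155 and 0.218) ended the call in that population.

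Ifnar1, one chain of the type I interferon receptor, differed between arms in opposite directions in the 2 Treg populations. It stood at 484, 387 and 494 CPM in PD-1+ Tregs under anti-PD-L1, against 366 and 298 CPM under isotype. In PD-1- Tregs it stood at 276 and 420.1 CPM under anti-PD-L1, against 747 and 603 CPM under isotype. CD4 T cells held 314, 334 and 272 CPM under anti-PD-L1 and 273 and 236 CPM under isotype. Every treated library was above both isotype libraries in PD-1+ Tregs and below both in PD-1- Tregs, and the arms overlapped in CD4 T cells. The log2 change was 0.46 ± 0.24 in PD-1+ Tregs (adjusted p = 0.644) and -0.96 ± 0.26 in PD-1- Tregs (adjusted p = 0.0737), neither past the threshold of 0.05. The difference between these 2 effects was -1.41 ± 0.35 (adjusted p = 0.0762). Without the 3 libraries with Y-linked reads, the change in PD-1- Tregs was -1.32 (adjusted p = 0.0404) and the difference between the Treg populations -1.68 (adjusted p = 0.0498). Leaving out treated PD-1- Treg replicate 2 alone gave -1.31 (adjusted p = 0.0250) and -1.73 (adjusted p = 0.0209), and leaving out replicate 1 instead gave -0.69 (adjusted p = 0.195) and -1.11 (adjusted p = 0.266). The treatment effect in PD-1- Tregs minus that in CD4 T cells was -1.23 ± 0.35 (adjusted p = 0.154), with adjusted p from 0.0355 to 0.562 on leaving out 1 library at a time.

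Between populations, Ifnar1 was higher in PD-1- Tregs than in CD4 T cells, at a mean of 511 ± 206 CPM (n = 4) against 286 ± 38.5 CPM (n = 5), a log2 change of 0.79 ± 0.17 that passed the test (adjusted p = 0.0282). The treated PD-1- Tregs, at 276 and 420.1 CPM, overlapped the CD4 T cells, while the isotype PD-1- Tregs, at 747 and 603 CPM, lay above every other library. It was 0.56 (adjusted p = 0.140) without the 3 libraries with Y-linked reads, and the call was lost on leaving out any of the 5 CD4 T cell libraries, isotype PD-1- Treg replicate 1 or treated PD-1- Treg replicate 2 (adjusted p from 0.0535 to 0.144). A replicate block by bracketed title number within treatment also ended the call. Macrophage markers did not overlap between these populations, with the sums given above. Neither did genes detected, at 8027 to 8801 in PD-1- Tregs and 12119 to 14535 in CD4 T cells. Their part in the result was not tested. PD-1+ Tregs were 0.48 ± 0.17 above CD4 T cells on the log2 scale without passing (adjusted p = 0.320).

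Ifnar2, which carries Jak1 at the same receptor, passed no test between treatments or populations. PD-1+ Tregs had 37.4, 48.1 and 175 CPM under anti-PD-L1, against 71.5 and 76.2 CPM under isotype. PD-1- Tregs had 68.4 and 89.8 CPM under anti-PD-L1, against 34.4 and 78.0 CPM under isotype. CD4 T cells had 112, 55.4 and 87.7 CPM under anti-PD-L1, against 53.2 and 59.4 CPM under isotype. The arms overlapped in every population, and the highest value belonged to a library with Y-linked reads.

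Among the kinases, Jak1, which serves both interferon receptors and many interleukin receptors, differed by less than 2-fold between libraries of a group. It was at 419.8, 345 and 286 CPM in PD-1+ Tregs under anti-PD-L1, against 208 and 291 CPM under isotype. In PD-1- Tregs it was at 327 and 445 CPM under anti-PD-L1, against 589 and 463 CPM under isotype. In CD4 T cells it was at 662, 506 and 555 CPM under anti-PD-L1, against 649 and 597 CPM under isotype. All 5 PD-1+ Treg libraries lay below all 5 CD4 T cell libraries, whichever antibody was given. The mean was 310.1 ± 78.4 CPM in PD-1+ Tregs and 594 ± 64.9 CPM in CD4 T cells, and the log2 change of -1.02 ± 0.17 passed the test (adjusted p = 0.0263). Without the 3 libraries with Y-linked reads it was -0.98 (adjusted p = 0.0959). The call was also lost on leaving out any 1 of 7 libraries (both isotype PD-1+ Treg libraries, treated PD-1+ replicate 3, both isotype CD4 T cell libraries and treated CD4 replicates 1 and 3), with log2 changes between -0.91 and -1.17. A replicate block by bracketed title number within treatment also ended the call. Macrophage markers overlapped between these 2 populations, with the sums given above. Genes detected did not overlap, at 9662 to 11312 in PD-1+ Tregs and 12119 to 14535 in CD4 T cells, and neither did the share of counts from the ribosomal RNA gene Rn45s, at 0.0816 to 0.255% in PD-1+ Tregs and 0.367 to 0.799% in CD4 T cells. Their part in the result was not tested.

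The level of Jak1 in PD-1- Tregs lay between, at 456 ± 107 CPM (n = 4). PD-1+ Tregs were lower than PD-1- Tregs by a log2 change of -0.61 ± 0.18 (adjusted p = 0.0775), and PD-1- Tregs lower than CD4 T cells by -0.41 ± 0.18 (adjusted p = 0.162), neither past the threshold. The first passed on leaving out treated PD-1- Treg replicate 1 (-0.71, adjusted p = 0.0400). Within PD-1- Tregs both treated libraries were below both isotype libraries, at a log2 change of -0.45 ± 0.27 (adjusted p = 0.382). The treatment effect in PD-1- minus that in PD-1+ Tregs was -0.94 ± 0.36 (adjusted p = 0.222).

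Jak2, the kinase of the Ifngr2 chain, varied more between libraries of a group. PD-1+ Tregs held 272, 73.0 and 294 CPM under anti-PD-L1, against 32.4 and 44.0 CPM under isotype. PD-1- Tregs held 55.3 and 3.95 CPM under anti-PD-L1, against 151 and 8.96 CPM under isotype. CD4 T cells held 72.7, 75.5 and 97.0 CPM under anti-PD-L1, against 63.4 and 65.2 CPM under isotype. Treated libraries lay above isotype libraries without overlap in PD-1+ Tregs and CD4 T cells, but replicates of 1 group differed by more than 10-fold in PD-1- Tregs. The log2 change was 2.48 ± 1.17 in PD-1+ Tregs (adjusted p = 0.615) and 0.35 ± 1.07 in CD4 T cells (adjusted p = 1). The difference of effects between PD-1- and PD-1+ Tregs was -3.91 ± 1.66 (adjusted p = 0.260), and leaving out 1 library at a time gave from -6.78 (adjusted p = 0.0495, without treated PD-1- Treg replicate 1) to -0.74 (adjusted p = 1, without isotype PD-1- Treg replicate 1).

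The transcription factor Irf1 followed no shared direction across populations. PD-1+ Tregs had 158, 101 and 165 CPM under anti-PD-L1, against 63.0 and 85.0 CPM under isotype. PD-1- Tregs had 273 and 109 CPM under anti-PD-L1, against 172 and 111 CPM under isotype. CD4 T cells had 138, 63.8 and 102 CPM under anti-PD-L1, against 173 and 123 CPM under isotype. All 3 treated PD-1+ libraries were above both isotype libraries, and the other populations overlapped between arms. The log2 change in PD-1+ Tregs was 0.93 ± 0.49 (adjusted p = 0.647), and it exceeded that in CD4 T cells by 1.48 ± 0.67 (unadjusted p = 0.0484, adjusted p = 1).

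Socs1, the inhibitor of Jak1 and Jak2 whose promoter is printed above, rose under anti-PD-L1 in PD-1- Tregs. Those cells had 438 and 402 CPM under anti-PD-L1, against 107 and 43.5 CPM under isotype. PD-1+ Tregs had 60.8, 40.1 and 43.6 CPM under anti-PD-L1, against 47.5 and 73.7 CPM under isotype. CD4 T cells had 112, 83.5 and 147 CPM under anti-PD-L1, against 95.9 and 89.1 CPM under isotype. The 2 treated PD-1- Treg libraries stood above all 12 others, and in the other populations the arms overlapped. The mean in PD-1- Tregs was 419.9 ± 24.9 CPM under anti-PD-L1 and 75.1 ± 44.6 CPM under isotype, a 5.59-fold rise with a log2 change of 2.48 ± 0.50 (adjusted p = 0.0207). Without the 3 libraries with Y-linked reads it was 2.51 (adjusted p = 0.0477). Leaving out 1 PD-1- Treg library at a time gave log2 changes of 1.96 to 3.26, each past the threshold, with 1 arm then a single library and the spread taken from the other groups. Leaving out either isotype CD4 T cell library, which enters only the shared estimate of spread, gave 2.47 and ended the call. A fit of the 4 PD-1- Treg libraries alone gave 2.49 (adjusted p = 0.705). A replicate block by replicate number also ended the call.

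Other values of these 4 libraries also differed between arms. Actb took 3.16 and 2.74% of counts in PD-1- Tregs under anti-PD-L1, against 6.53 and 8.71% under isotype. The 10 most counted genes took 9.19 and 9.54% under anti-PD-L1, against 13.2 and 15.4% under isotype. Detected genes numbered 8703 and 8027 under anti-PD-L1 and 8451 and 8801 under isotype, and macrophage markers summed to 1293 to 1427 CPM under anti-PD-L1 and 1078 to 1815 CPM under isotype. The 9 markers used for dendritic cells were Itgax, Flt3, Xcr1, Clec9a, Cd209a, Zbtb46, Siglech, Ccr7 and Fscn1, of which 6 were detected in each arm. They summed to 1019.6 and 578 CPM under anti-PD-L1, against 1345 and 1510 CPM under isotype. Xcr1 and Zbtb46 were at 0 in all 4. The sum does not tell which of these genes, or which cells, it came from. Markers of neutrophils and mast cells summed to 56.9 and 17.5 CPM under anti-PD-L1, with 3 of 8 detected, against 0 in both isotype libraries. Both marker sums differed without overlap between the arms. The part of these shifts in the Socs1 result was not tested.

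Averaged over both antibodies, Socs1 was lower in PD-1+ than in PD-1- Tregs, at 53.2 ± 13.9 CPM (n = 5) against 248 ± 201 CPM (n = 4), a log2 change of -1.72 ± 0.33 (adjusted p = 0.0132). The PD-1- mean spans 438 and 402 CPM under anti-PD-L1 and 107 and 43.5 CPM under isotype. Under isotype alone the 2 Treg populations overlapped, with 47.5 and 73.7 CPM in PD-1+ Tregs and 107 and 43.5 CPM in PD-1- Tregs. The change was -1.70 (adjusted p = 0.0464) without the 3 libraries with Y-linked reads, and the call was lost without isotype PD-1+ Treg replicate 1 (-1.55, adjusted p = 0.0686). A replicate block by bracketed title number within treatment also ended the call. Macrophage markers differed without overlap between these populations, with the sums given above. So did genes detected (9662 to 11312 in PD-1+ against 8027 to 8801 in PD-1- Tregs). Their part was not tested. All 5 PD-1+ Treg libraries were also below all 5 CD4 T cell libraries for Socs1, at -0.93 ± 0.31 (adjusted p = 0.310). PD-1- Tregs were 0.79 ± 0.32 above CD4 T cells (adjusted p = 0.139).

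Whether the Socs1 response differed between populations was tested directly. The treatment effect in PD-1- Tregs exceeded that in PD-1+ Tregs by 2.81 ± 0.65 on the log2 scale, just short of the threshold (adjusted p = 0.0566), and that in CD4 T cells by 2.18 ± 0.64 (adjusted p = 0.164). The first difference passed on leaving out isotype PD-1- Treg replicate 1 (3.62, adjusted p = 0.0104) or treated PD-1- Treg replicate 1 or 2 (2.78 and 2.89, adjusted p = 0.0453 and 0.0485), and the second on leaving out isotype PD-1- Treg replicate 1 (2.98, adjusted p = 0.0296). Leaving out other single libraries gave values down to 2.32 and 1.68, with adjusted p up to 0.201 and 0.528. Averaged over the 3 populations, the treatment change of Socs1 was 0.82 ± 0.26 (adjusted p = 0.176), 1.06 (adjusted p = 0.0417) without that isotype library, and as low as 0.62 (adjusted p up to 0.489) without another.

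Socs3, known as an inhibitor of receptors that use gp130, passed no test. PD-1+ Tregs had 0, 34.7 and 63.1 CPM under anti-PD-L1, against 66.4 and 52.8 CPM under isotype. PD-1- Tregs had 128 and 34.2 CPM under anti-PD-L1, against 83.0 and 85.8 CPM under isotype. CD4 T cells had 101, 68.8 and 104 CPM under anti-PD-L1, against 100.3 and 87.4 CPM under isotype. The arms overlapped in every population, and the library with 0 counts allows a level of up to 0.257 CPM. All 5 PD-1+ Treg libraries were below all 5 CD4 T cell libraries, at a log2 change of -1.07 ± 1.01 (adjusted p = 0.909).

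**Figure D2:**
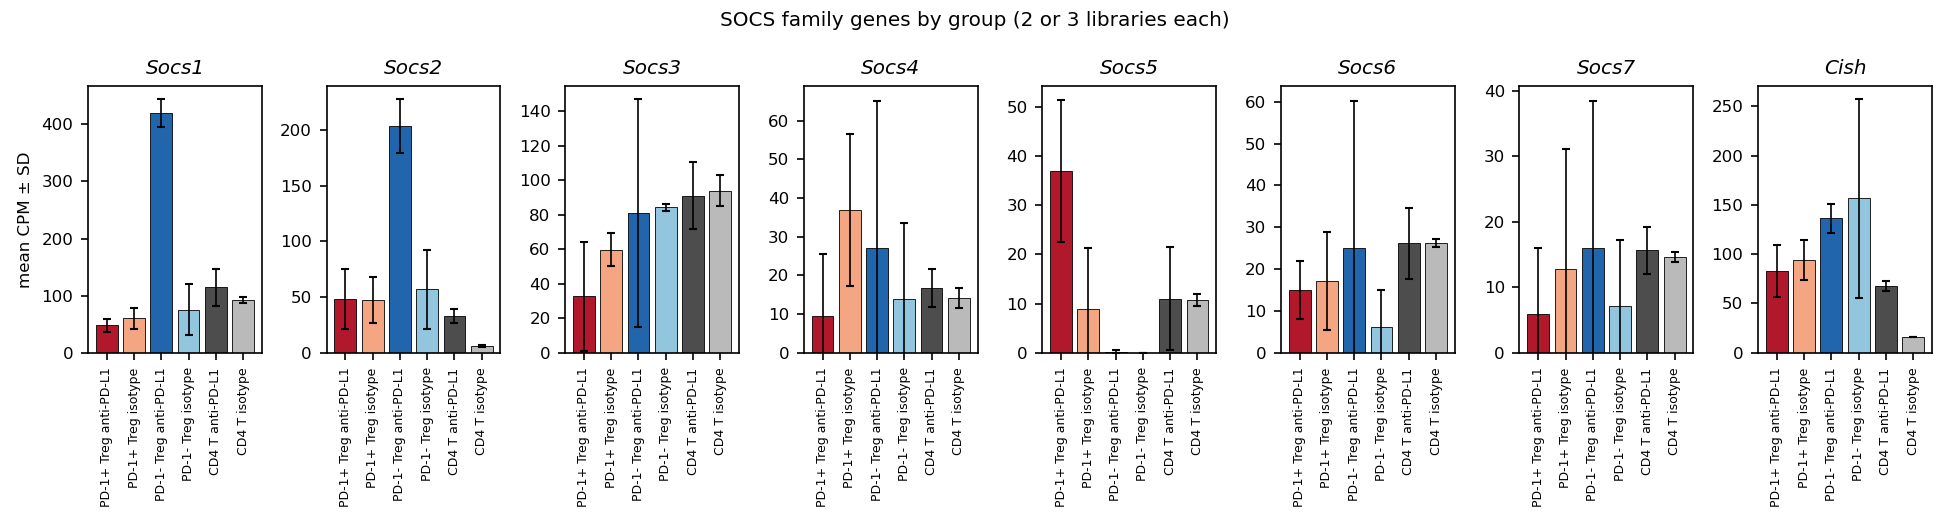
Mean level of 8 SOCS family genes per group in CPM on linear axes from 0, with error bars of 1 SD (n = 2 or 3) and anti-PD-L1 left of isotype in each population. Socs1 and Socs2 are both highest in treated PD-1- Tregs, at 419.9 and 204 CPM, and their other group means are at or below 114 and 56.9 CPM.

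In the same family, Socs2, a STAT5-induced inhibitor, was at 204 ± 24.6 CPM in PD-1- Tregs under anti-PD-L1 and 56.9 ± 35.7 CPM under isotype (n = 2 each), a log2 change of 1.84 ± 0.82 that did not pass (adjusted p = 0.232). Socs2 and Cish, another STAT5 target, were higher in PD-1- Tregs than in CD4 T cells, by 2.89 ± 0.57 (adjusted p = 0.0180) and 2.15 ± 0.39 (adjusted p = 0.0112). The call for each was lost on leaving out either isotype CD4 T cell library, and that for Socs2 also without treated CD4 replicate 1 or 3. Within PD-1- Tregs Cish was at 136 ± 14.9 CPM under anti-PD-L1 and 157 ± 101 CPM under isotype. The treatment change of Socs2 was not confined to PD-1- Tregs. In CD4 T cells Socs2 was at 33.0 ± 6.36 CPM under anti-PD-L1 and 6.36 ± 0.934 CPM under isotype, without overlap. That log2 change was 2.37 ± 0.80 (edgeR, unadjusted p = 0.0110), and Cish changed there by 2.07 ± 0.55. Neither passed after adjustment. In PD-1+ Tregs Socs2 was at 48.4 ± 27.2 CPM under anti-PD-L1 and 47.6 ± 20.8 CPM under isotype.

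**Figure D3:**
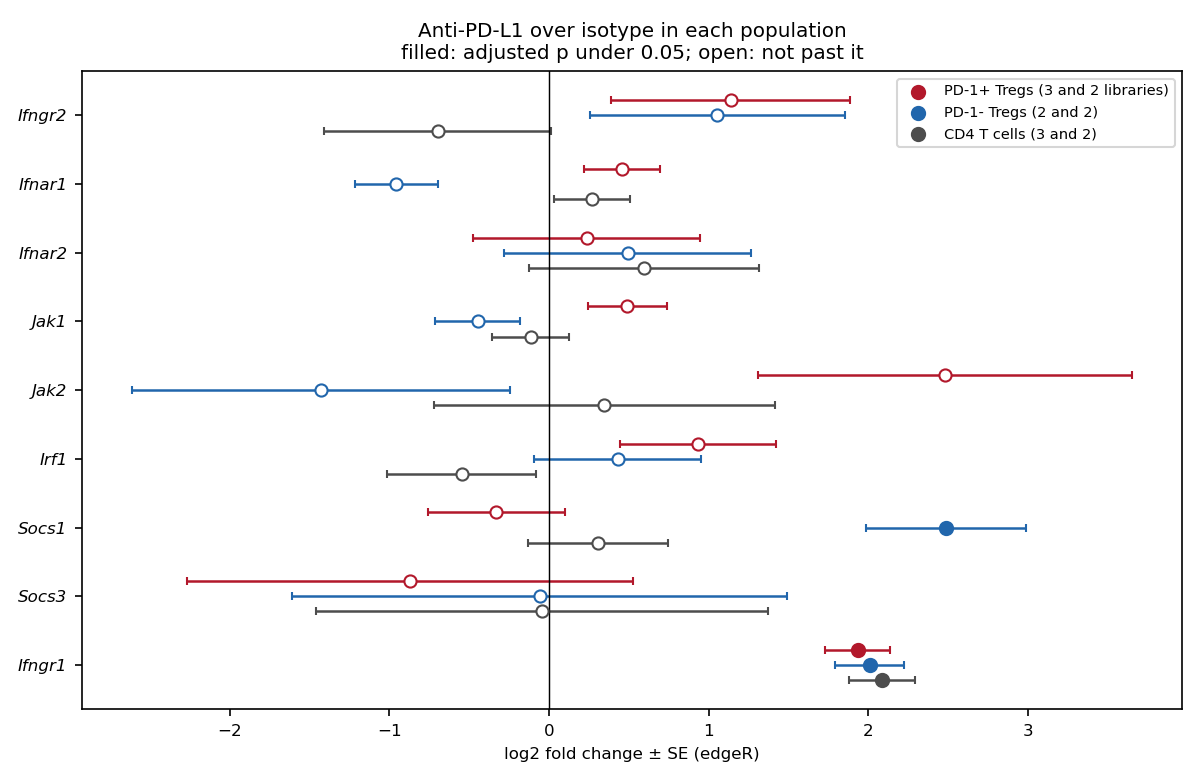
Log2 fold change ± SE of anti-PD-L1 over isotype from the edgeR fit, for the 8 genes and, for reference, Ifngr1, in each population; filled points passed an adjusted p of 0.05. Among the 8, only Socs1 in PD-1- Tregs (2.48 ± 0.50) is filled, and Ifngr1 is filled in all 3 populations near a change of 2.

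Counted over the 8, 1 gene passed the test for treatment, in 1 population. In PD-1- Tregs 1 of 8 passed (Socs1, higher), against 2.66% of all genes tested, and 3 of 8 did not overlap between arms (Ifnar1, Jak1, Socs1), against 26.5% of all genes. In PD-1+ Tregs 0 of 8 passed, against 0.0149% of all genes, 0 had an unadjusted p under 0.05 (8.06% of all genes), and 3 (Ifnar1, Jak2, Irf1) were higher without overlap, against 7.69% of all genes in that direction and 19.2% in either. In CD4 T cells 0 of 8 passed, against 0.00744%, 0 had an unadjusted p under 0.05 (1.15% of all genes), and 2 did not overlap (Ifngr2 lower, Jak2 higher), against 27.9%. The shares without overlap in PD-1- Tregs and CD4 T cells are not far from those of all genes. With 8 genes, each share in the 3 populations rests on few members. By DESeq2, 2 members passed in PD-1- Tregs, beside 2710 of 13434 genes. In the PD-1+ and CD4 populations 0 members passed by DESeq2, beside 611 and 54 genes. The median log2 change of the 8 was 0.47 in PD-1+ Tregs, against 0 for all genes, and 0.18 in the PD-1- population, also against 0. Among CD4 T cells it was 0.11, against -0.01 for all genes. Averaged over populations, 0 of 8 passed (1.23% of all genes) and 1 had an unadjusted p under 0.05 (14.8% of all genes). By DESeq2, 1 passed in the average, beside 1855 of 13434 genes.

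**Figure D4:**
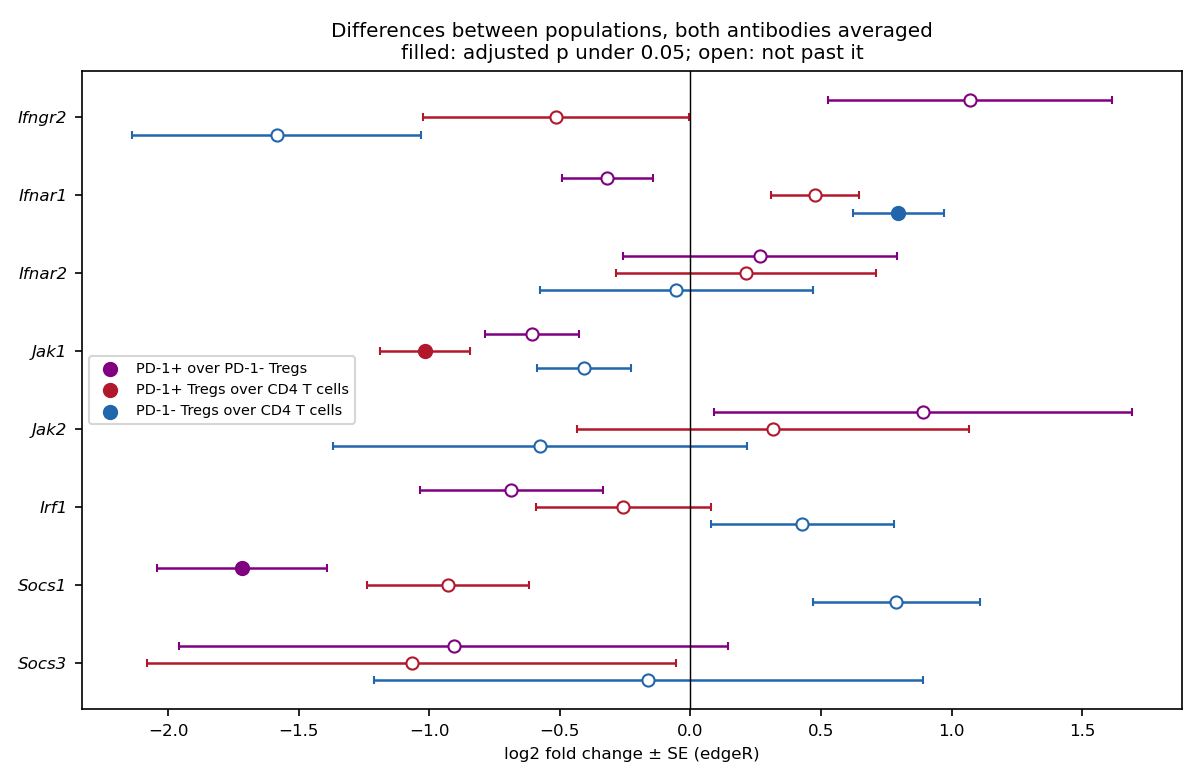
Log2 fold change ± SE between populations, with both antibodies weighted equally, for the 8 genes; filled points passed an adjusted p of 0.05. Socs1 is filled for PD-1+ over PD-1- Tregs (-1.72), Jak1 for PD-1+ Tregs over CD4 T cells (-1.02) and Ifnar1 for PD-1- Tregs over CD4 T cells (0.79). Each of these calls was lost with a replicate block by bracketed title number.

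Between populations, 1 of 8 passed in each comparison, and these 3 comparisons share their libraries in pairs. With a replicate block by bracketed title number within treatment, 0 of 8 passed in each. For PD-1+ over PD-1- Tregs it was Socs1, against 4.28% of all genes, with 0 of 8 not overlapping against 4.02%. For PD-1+ Tregs over CD4 T cells it was Jak1, against 0.35% of all genes, with 3 of 8 (Jak1, Socs1, Socs3) lower without overlap against 4.72% in that direction. For PD-1- Tregs over CD4 T cells it was Ifnar1, against 3.6% of all genes, with 0 of 8 not overlapping against 14%. The median change of the 8 was -0.46, -0.39 and -0.11 in this order, while the median of all genes was 0.42, -0.23 and -0.94. In the 3 tests of a difference in treatment effect, 0 of 8 passed. For PD-1- minus PD-1+ Tregs 1.46% of all genes passed and 4 members had an unadjusted p under 0.05 (16.4% of all genes). There 2 members passed by DESeq2, beside 2142 of 13434 genes. For PD-1- Tregs minus CD4 T cells 0.975% of all genes passed and 2 members had an unadjusted p under 0.05 (14.3% of all genes). There 2 members passed by DESeq2, beside 1754 genes. For PD-1+ Tregs minus CD4 T cells 0% of all genes passed and 1 member had an unadjusted p under 0.05 (3.5% of all genes). There 0 members passed by DESeq2, beside 270 genes.

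Genes around the 8 were counted in lists. Of 14 other genes of the interferon pathway, Ifngr1 alone passed, higher under anti-PD-L1 in each population and in their average. Transcripts of the ligand, Ifng, were at 6.52, 18.6 and 11.4 CPM in PD-1+ Tregs under anti-PD-L1, against 6.37 and 19.5 CPM under isotype. In PD-1- Tregs they were at 28.8 and 0 CPM under anti-PD-L1, against 0 in both isotype libraries. In CD4 T cells they were at 58.4, 44.3 and 50.9 CPM under anti-PD-L1, against 18.1 and 9.05 CPM under isotype, higher without overlap at a log2 change of 1.91 ± 1.98 (adjusted p = 1).

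Among 22 interferon-gamma response genes, 2 rose and 0 fell in treated PD-1- Tregs, against 2.66% of all genes called there. Igtp, an immunity-related GTPase, was at 963 ± 165 CPM under anti-PD-L1 against 396 ± 93.0 CPM under isotype, a log2 change of 1.28 ± 0.28 (adjusted p = 0.0332). B2m, the light chain of MHC class I, was at 7886 ± 482 CPM under anti-PD-L1 against 4525 ± 94.7 CPM under isotype, a change of 0.80 ± 0.13 (adjusted p = 0.00885). The call for Igtp was lost without the 3 libraries with Y-linked reads (1.07, adjusted p = 0.103), and that for B2m was not (0.84, adjusted p = 0.0266). Leaving out any CD4 T cell library, treated PD-1- Treg replicate 2 or isotype PD-1- Treg replicate 2 also ended the Igtp call (adjusted p from 0.0569 to 0.124). The list's median change there was 0.30, beside 0 for all genes. In PD-1+ Tregs 0 of 22 passed, 6 had an unadjusted p under 0.05 (8.06% of all genes) and the median was 0.40. In CD4 T cells 0 of 22 passed, 1 had an unadjusted p under 0.05 (1.15% of all genes) and the median was 0.19. Averaged over populations, Igtp rose by 0.83 ± 0.16 (adjusted p = 0.0245) and B2m by 0.40 ± 0.07 (adjusted p = 0.0195), against 1.23% of all genes called, and each call was lost under 8 of 22 alternatives.

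Among 19 type I interferon response genes, 1 fell in treated PD-1- Tregs and 0 rose, beside the same 2.66% of all genes. Oasl2, an oligoadenylate synthetase-like gene, had 0 counts in both treated libraries, against 26.0 ± 12.1 CPM under isotype (adjusted p = 0.00567). The call was lost under 1 of 23 alternatives. Against a floor of 3 counts per library it was at least 109.6-fold lower. That limit covers counting error only and not the spread between libraries. In the family list of 12 other JAK, SOCS and IRF genes, 1 rose there, Irf5, known for inflammatory gene induction in myeloid cells. It had 1628 counts under anti-PD-L1 and 3 counts under isotype, all 3 in 1 library (adjusted p = 0.00701). The call was lost under 1 of 23 alternatives. The pooled ratio was 465 (95% exact interval 159 to 2259), and this interval covers counting error only and not the spread between libraries. Among 13 cytokine receptor genes that signal through Jak1, 0 passed in any single population, and the IL-2 receptor chain Il2rb rose in the average over populations (1.23% of all genes called) by 1.25 ± 0.23 (adjusted p = 0.0219), which was 1.22 (adjusted p = 0.0538) without the libraries with Y-linked reads and 1.12 to 1.29 (adjusted p from 0.0668 to 0.125) on leaving out treated CD4 replicate 1 or 3, either isotype CD4 library or isotype PD-1+ replicate 1.

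Between populations, 2 of the 22 interferon-gamma response genes passed for PD-1+ over PD-1- Tregs, both lower, beside 4.28% of all genes. Gbp2, an interferon-induced GTPase, was at 65.2 to 198 CPM in PD-1+ Tregs, against 222 to 482 CPM in PD-1- Tregs, a log2 change of -1.66 ± 0.30 (adjusted p = 0.0105). It was -1.80 (adjusted p = 0.0341) without the libraries with Y-linked reads, and the call was lost without isotype PD-1+ Treg replicate 1 (-1.49, adjusted p = 0.0532). Tapbp, which encodes tapasin of the MHC class I loading complex, was at 413 to 750.3 CPM in PD-1+ Tregs, 613 to 1148 CPM in PD-1- Tregs and 872 to 1029 CPM in CD4 T cells. PD-1+ Tregs were lower in Tapbp than PD-1- Tregs by a log2 change of -0.58 ± 0.14 (adjusted p = 0.0381), a call lost under 15 of 24 alternatives. They were lower than CD4 T cells by -0.74 ± 0.13 (adjusted p = 0.0333), 1 of 22 in that comparison beside 0.35% of all genes, and that call was lost under 10 of 24. Genes detected differed without overlap in both comparisons, as given above. Macrophage markers did so between the Treg populations but overlapped between PD-1+ Tregs and CD4 T cells. Their part was not tested.

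Il2ra encodes CD25, on which the cells were sorted, so its levels describe the gate and are no finding between populations. It was at 192 to 391 CPM in PD-1+ Tregs, 247 to 662 CPM in PD-1- Tregs and 13.4 to 79.5 CPM in CD4 T cells, with log2 changes over CD4 T cells of 3.35 ± 0.32 for PD-1+ Tregs (adjusted p = 0.000709) and 4.05 ± 0.34 for PD-1- Tregs (adjusted p = 0.000205). Oasl2 was at 35.4 to 88.2 CPM in PD-1+ Tregs, 0 to 34.6 CPM in PD-1- Tregs and 22.7 to 53.2 CPM in CD4 T cells. Irf5 was at 26.0 to 142 CPM in PD-1+ Tregs, 0 to 80.3 CPM in PD-1- Tregs and between 42.1 and 94.95 CPM in CD4 T cells. Both passed for PD-1+ over PD-1- Tregs and again for PD-1- Tregs over CD4 T cells. They also passed in the treatment average, a call lost under 13 of 22 alternatives for Irf5 and 6 of 22 for Oasl2. By treatment within a population, each passed for PD-1- Tregs alone. Mean Irf5 under anti-PD-L1 and isotype was 97.5 ± 21.3 and 83.8 ± 81.8 CPM for PD-1+ Tregs. For CD4 T cells it was 68.4 ± 26.4 and 63.3 ± 7.44 CPM. Mean Oasl2 was 45.3 ± 10.4 and 72.6 ± 22.1 CPM, then 40.7 ± 15.9 and 46.2 ± 5.75 CPM, respectively. In these tests, libraries with 0 counts leave the fitted folds dependent on the prior count.

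Likeness over the 14 libraries was described by Pearson's r of log2 CPM, with no test, since libraries of a group share treatment and population. Among the 28 pairs of members r ran from -0.49 to 0.39 with a median of -0.01, so the 8 did not vary as a block, and within groups it ran from -0.78 to 0.75. Among 8834 genes with a mean of at least 10 CPM, the gene most like Socs1 was Mat2a (r = 0.88), followed by Tpr (0.84) and Rbbp4 (0.82). The closest gene was Sema4b for Ifnar1 (0.93), Tbc1d10c for Jak1 (0.85), Ssbp3 for Jak2 (0.93), Snrk for Irf1 (0.84), Nhlrc2 for Ifngr2 (0.87), Plekha2 for Ifnar2 (0.78) and Tmem209 for Socs3 (0.97). No member was among the 3 genes most like another.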

How the data were processed

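RNA from 14 libraries of sorted tumour T cells in 6 groups was analysed from 2 tables the authors deposited, 1 of raw read counts and 1 of RPKM values per gene and library, with the units taken from the tables' names and values. Per the submitters' processing notes, the build was mm10 and the tools included HOMER 3.12, HISAT2 2.0.4, SAMtools and DESeq2. Counting settings and annotation are not stated. Libraries held 10638848 to 15030804 counts, so 1 count equals 0.0659 to 0.0974 CPM.

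Deposited counts were tested with edgeR 4.0.16 in R 4.3.3 (TMM scaling, filterByExpr at a minimum count of 10, robust quasi-likelihood F-test, 1 fit of 6 group means). P-values were adjusted by Benjamini-Hochberg over 13434 genes, with a threshold of 0.05. Comparisons over several groups weight log2 group means equally. Each SE is the log2 change over the square root of F. Levels are CPM without a prior count, and correlations use log2 CPM with a prior count of 2. Alternatives were DESeq2 1.42.0, limma-voom 3.58.1, log2(RPKM + 1) and log2(RPKM + 0.1) in limma, RLE scaling, no filter, fits of only the libraries compared, replicate blocks, and leaving out libraries. The fit was also run on simulated independent counts with changes planted in treated PD-1- Tregs. That run does not cover shared sources of libraries and is no check of the calls.

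The members and lists were chosen with earlier results of these data known. All 8 members are named. A member's change is printed where its unadjusted p was under 0.05 or its arms did not overlap, or where a sentence needs it. Genes of the context lists are named where they passed, with Ifng and the SOCS family added.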

Additional observations from a re-analysis of the deposited data

Results flagged for a closer look

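The treatment effect on Ifnar1 ran in opposite directions without overlap in the 2 Treg populations, at a log2 change of 0.46 for the PD-1+ cells and -0.96 for the PD-1- cells. The test of that difference gave -1.41 ± 0.35 and did not pass (edgeR, adjusted p = 0.0762). Neither change passed by itself (adjusted p = 0.644 and 0.0737, with the PD-1+ cells first). Arms without overlap, whichever the direction, were found for 19.2% and 26.5% of all genes, in the same order. How many genes did so in opposite directions was not counted.

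Of the genes around the 8, 3 passed a test of the difference in treatment effect. For Irf5 the fitted effect in PD-1- Tregs exceeded that in PD-1+ Tregs by 8.55 and that in CD4 T cells by 8.66 on the log2 scale (adjusted p = 0.0189 and 0.0216). For Oasl2 the differences were -10.67 and -11.16 (adjusted p = 0.0180 and 0.0186). Isotype PD-1- Tregs held 3 counts of Irf5 and treated PD-1- Tregs 0 counts of Oasl2, so these fitted values depend on the prior count and are no bounds. The calls were lost under 5 and 9 of 24 alternatives for Irf5 and 9 and 9 for Oasl2. For Il2rg, the common chain of the IL-2 receptor family, the effect in PD-1- minus PD-1+ Tregs was -1.40 ± 0.28 (adjusted p = 0.0319), a call lost under 14 of 24 alternatives, among them without the 3 libraries with Y-linked reads (-1.33, adjusted p = 0.0846), with limma-voom (adjusted p = 0.541) and without either isotype PD-1+ Treg library (adjusted p = 0.0828 and 0.166). It stood at 3598 ± 1.91 CPM in PD-1- Tregs under anti-PD-L1 against 5994 ± 1345 CPM under isotype, and at 4518 ± 404 CPM in PD-1+ Tregs under anti-PD-L1 against 2844 ± 428 CPM under isotype.

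Reads of Y-linked genes appeared in 3 libraries of a study labelled female, at 207.5 CPM in CD4 T cells under anti-PD-L1 (replicate 3), 249.5 CPM in PD-1- Tregs under anti-PD-L1 (replicate 2) and 285 CPM in PD-1+ Tregs under anti-PD-L1 (replicate 3), and the 3 titles share the bracketed number 3.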

How the results depend on the processing

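No result reversed under any alternative run. With 2 or 3 libraries a group, calls of single genes move easily with the estimate of spread. Of the 4 calls among the 8 genes, the Socs1 rise in treated PD-1- Tregs was lost under 4 of 23 alternatives (adjusted p from 4.37e-06 to 0.705), Socs1 in PD-1+ over PD-1- Tregs under 3 of 24, Jak1 in PD-1+ Tregs over CD4 T cells under 10 of 24 and Ifnar1 in PD-1- Tregs over CD4 T cells under 12 of 24. The cause was not tested. Counts below are of genes passing, in the order of comparisons given.

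DESeq2 called 611, 2710 and 54 genes for treatment in PD-1+ Tregs, PD-1- Tregs and CD4 T cells and 1855 for their average, 2933, 724 and 3097 for PD-1+ over PD-1- Tregs, PD-1+ Tregs over CD4 T cells and PD-1- Tregs over CD4 T cells, and 2142, 1754 and 270 for the differences PD-1- minus PD-1+ Tregs, PD-1- Tregs minus CD4 and PD-1+ Tregs minus CD4 (main counts 2, 358, 1 and 165, 575, 47 and 484, 196, 131 and 0). Limma-voom called 149, 686, 0 and 353, then 1332, 538 and 3352, then 399 and 293 for the first 2 differences. With log2(RPKM + 0.1) the moved counts were 54, 546 and 21 for treatment, 319 and 1771 against CD4 T cells. With log2(RPKM + 1) they were 58 in PD-1+ Tregs, 105 for the average, 193 and 968 against CD4 T cells, and 93, 14 and 1 for the differences. Without the filter, 71 genes were called for PD-1+ Tregs over CD4 T cells and 3 for treatment in CD4 T cells. Fits of only the libraries compared gave 0, 0 and 6 for treatment, 33, 152 and 1466 between populations, and 0 and 62 for the first 2 differences. Without the 3 libraries with Y-linked reads there were 4, 690 and 2 for treatment, 367 for the average, and 413 and 347 for the first 2 differences.

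Members passing moved to 2 (treatment in PD-1- Tregs), 1 (average), 2 (PD-1+ over PD-1- Tregs), 3 (PD-1- Tregs over CD4) and 2 and 2 (first 2 differences) under DESeq2; to 2 (treatment in PD-1- Tregs), 2 (PD-1- Tregs over CD4) and 1 (first difference) under limma-voom; and to 1 (first difference) with either RPKM scale and 0 (PD-1- Tregs over CD4) with log2(RPKM + 1). Fits of only the libraries compared left 0 for treatment in PD-1- Tregs and 0 for PD-1+ over PD-1- Tregs. Without the libraries with Y-linked reads there were 2 for treatment in PD-1- Tregs, 1 for the first difference, and 0 for each Treg population over CD4.

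Leaving out 1 library at a time gave 1 to 4, 196 to 1008 and 0 to 2 genes for treatment in PD-1+ Tregs, PD-1- Tregs and CD4 T cells, 33 to 763 for the average, 281 to 1301, 11 to 74 and 147 to 1235 between populations, and 33 to 878, 16 to 762 and 0 to 3 for the differences. Members passing ranged 0 to 0, 0 to 2, 0 to 0 and 0 to 1 for treatment, 0 to 2, 0 to 1 and 0 to 1 between populations, and 0 to 2, 0 to 1 and 0 to 0 for the differences.

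Whether title or replicate numbers mark shared animals is not stated, and the main fit did not pair the libraries. The correlation of deviations from group means was 0.00203 to 0.0354 over 13 pairs with the same bracketed title number and treatment, all above 0. Over 20 pairs with the same treatment and another title number it was -0.0333 to 0.0172. It was -0.0114 to 0.0740 over 6 pairs with the same population and replicate number. The 3 libraries with Y-linked reads share a title number. Replicate and title numbers differ in treated PD-1- Tregs, so a block by each groups those libraries differently. In groups of 2 libraries the deviations mirror each other, so these small correlations cannot decide whether the numbers pair the samples. A replicate block by replicate number gave 1 and 146 genes for treatment in PD-1+ and PD-1- Tregs, 29 for the average, 173 and 100 for PD-1+ over PD-1- Tregs and PD-1- Tregs over CD4, and 32 and 20 for the first 2 differences, with 0 members for treatment in PD-1- Tregs and for each Treg population over CD4. A replicate block by title number within treatment gave 84, 52, 10 and 9 genes for those last 4 comparisons and 0 members in all 3 population comparisons. Under the block by title number Socs1 in PD-1+ over PD-1- Tregs was -1.74 (adjusted p = 0.0898), Jak1 in PD-1+ Tregs over CD4 T cells -1.02 (adjusted p = 0.0673) and Ifnar1 in PD-1- Tregs over CD4 T cells 0.79 (adjusted p = 0.116), and under that by replicate number Socs1 for treatment in PD-1- Tregs was 2.55 (adjusted p = 0.0534).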
